A study of Sorghum bicolor with 4 samples.

Results

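The peaks described here lie on the large unplaced scaffolds of the sorghum assembly, pieces of sequence that have not been put on any chromosome. They were chosen by the positions of peaks alone, as every peak on a scaffold named super_ whose last peak ends at 100 kb or more. A scaffold with no peak that far out could not enter, whatever its true length. This rule took in 3517 peaks on 56 scaffolds, of 40087 peaks in the list, or 8.77% of all peaks and 77.4% of the peaks on scaffolds. Of the remaining peaks, 1029 lay on 298 small scaffolds and 35541 on the 10 chromosomes.

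The list comes from chromatin immunoprecipitation and sequencing (ChIP-seq) in mesophyll protoplasts, which are leaf cells without their walls. All 4 samples came from protoplasts that transiently expressed SbGhd7 overnight. One group, with 2 samples, is the immunoprecipitate (IP) obtained with a Myc antibody from Sigma, and the other, with 2 samples, is input chromatin with no antibody. All peak names carry the name of 1 alignment, and how the 2 IP samples entered the list is not given in the sources used here. An IP from cells without SbGhd7 is not described in the labels, and the labels do not say whether samples with different numbers came from separate protoplast preparations. The factor was carried on introduced DNA and not made by its own gene at its own level, which limits the cells as a model of a leaf.

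SbGhd7 is a sorghum protein with a CCT domain, a domain found in plant regulators of flowering time. It delays flowering in long days by lowering the expression of flowering activators. Unplaced scaffolds of plant assemblies are often rich in repeats and hold few genes. Reads from many copies of a repeat can pile up on the few copies that an assembly contains, and they then raise both the IP signal and the background it is set against. No repeat annotation, gene annotation or genome sequence in the coordinates of the list was used, so the part of repeats in the values below was not tested.

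Each fold, p-value and q-value comes from the authors' deposited table and is their own value for a peak, given once for the whole comparison of IP with control and not per sample. No spread between samples can be given, and peaks are not replicates of each other. The differences below are therefore descriptions, with intervals at 95% for counting error only. These are exact Poisson intervals on densities and pileups, and exact Clopper-Pearson intervals on shares of peaks, gaps and windows. Intervals on medians are distribution-free binomial intervals. Neighbouring peaks are not independent, so these intervals are too narrow where peaks cluster and where amplified copies of 1 molecule were counted more than once. The fold is the number of IP fragments over the summit (the pileup) plus 1, divided by the number expected there from the control (the background) plus 1. Both numbers were recovered from the fold and the p-value of each peak. The depth of the libraries is unknown. Scaffold length means the end of the last peak, so lengths are lower bounds and densities and covered shares are upper bounds. Long scaffolds without a peak at 100 kb or beyond, if there are any, add no length to the large scaffolds. Comparisons with chromosomes therefore hold for the chosen scaffolds only.

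The large scaffolds carried many more peaks for their length than the chromosomes did. Over 17.4 Mb they held 202.2 peaks per Mb (195.5 to 209.0), against 52.0 (51.5 to 52.6) on the chromosomes, a ratio of 3.89. The small scaffolds held 276.7 peaks per Mb (260.1 to 294.1). Peaks covered 1525 kb, or 8.77%, of the large scaffolds, 10.4% of the small scaffolds and 1.45% of the chromosomes. The median peak was 248 bp wide on large scaffolds (quartiles 183 and 392), 238 bp on small scaffolds (174 and 361) and 223 bp on chromosomes (170 and 323). Widths of 1 kb or more were found in 139 peaks, or 3.95% (3.33 to 4.65), on large scaffolds, in 5.64% (4.31 to 7.23) on small scaffolds and in 0.830% (0.738 to 0.930) on chromosomes.

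The individual folds were modest. The median fold was 3.41 (quartiles 2.93 and 4.03) on large scaffolds, 3.58 (3.03 and 4.32) on small scaffolds and 3.74 (3.31 and 4.28) on chromosomes. In the authors' deposited table, 194 of 3517 peaks had a fold of at least 5, or 5.52% (4.78 to 6.32), where the share over all peaks of the list was 8.22%. Of the 3517 peaks, 0 had a fold of at least 8, with an exact upper limit of 0.105% for the share. On chromosomes 46 peaks, or 0.129% (0.0948 to 0.173), reached it. The upper limit for the large scaffolds lies inside the chromosome interval, and a difference in this share was not tested. The −log10 q ran the other way. It was 5 or more in 1474 peaks of the large scaffolds, or 41.9% (40.3 to 43.6), against 20.9% over the whole list. The q was at most 0.05 in 3510 of them, and in 99.5% of all peaks. At a given fold the q falls as the background rises, and the median background was 5.38 fragments on large scaffolds against 2.30 on chromosomes. A peak with the median pileup of large scaffolds, 21 fragments (13 to 32.1), at this background has a fold of 3.45 (2.19 to 5.19), an interval that holds both quartiles.

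The surplus of peaks on the large scaffolds was found at summits with a raised background. Peaks with a background under 3 fragments numbered 30.1 per Mb (27.5 to 32.8) on large scaffolds and 43.1 per Mb (42.6 to 43.6) on chromosomes, a ratio of 0.698. Counts by background are per Mb of the whole length, because the length with a given background is unknown. They therefore do not give the rate of peaks where the background is low. With the cut at 5 fragments, peaks under it numbered 87.9 per Mb on large scaffolds, a ratio of 1.76 to chromosomes. Peaks with a background of 3 or more numbered 172.1 per Mb (166.0 to 178.4) on large scaffolds and 8.93 per Mb (8.71 to 9.15) on chromosomes, a ratio of 19.3. On small scaffolds there were 111.3 per Mb (100.9 to 122.6) under 3 and 165.4 per Mb (152.6 to 179.0) at 3 or more. The high count at 3 or more was thus shared by both kinds of scaffold, and the low count under 3 was not. Summits with a background of 3 or more made up 85.1% of the peaks on large scaffolds and 17.16% of those on chromosomes. Background thus moved with the density, and its part in the difference was not tested. The most common class on large scaffolds was 5 to 10 fragments, with 1356 peaks or 38.6%, and the most common on chromosomes was 2 to 3 fragments, with 64.5%.

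**Figure D1:**
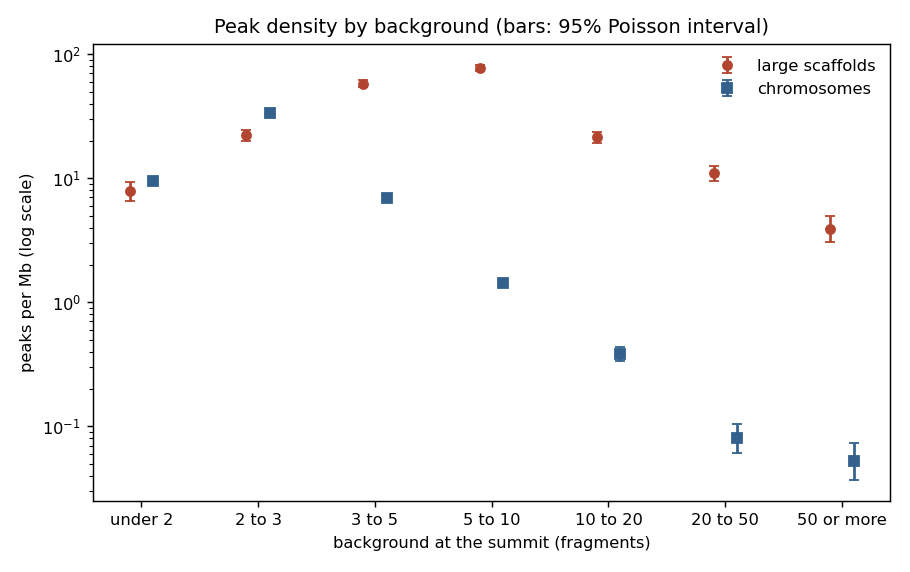
Peaks per Mb of the whole length (log scale) in 7 classes of background at the summit. The 56 large scaffolds are circles and the 10 chromosomes squares, with 95% Poisson intervals as bars. In the classes under 3 fragments the large scaffolds lie below the chromosomes, and from 3 to 5 fragments upward they lie above, with 77.9 against 1.44 peaks per Mb at 5 to 10 fragments.

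Within a class of background, folds and widths on large scaffolds and chromosomes differed less up to 10 fragments than above. At 2 to 3 fragments the median fold was 3.76 on large scaffolds and 3.76 on chromosomes, and the median width was 230 bp on large scaffolds and 221 bp on chromosomes. At 3 to 5 fragments the median fold was 3.64 on large scaffolds and 3.44 on chromosomes, with median widths of 238 and 242 bp. At 5 to 10 fragments the median fold was 3.22 on large scaffolds and 3.30 on chromosomes. At 10 to 20 fragments it was 2.89 on large scaffolds, 2.86 on small scaffolds and 3.36 on chromosomes. The median width in this class was 268.5 bp on large scaffolds and 338.5 bp on chromosomes. At 20 to 50 fragments the order was the other way, with a median fold of 3.92 and a median width of 523 bp in 190 peaks on large scaffolds, against 2.68 and 309 bp in 55 peaks on chromosomes. At 50 or more, the 68 peaks on large scaffolds had a median width of 2706 bp and a median fold of 4.41, against 305.5 bp and 3.88 in 36 peaks on chromosomes. Small scaffolds also had wide peaks of high fold there, so these were not particular to large scaffolds. Their median fold and width were 4.27 and 722.5 bp in 64 peaks at 20 to 50 fragments. At 50 or more they were 4.39 and 1334 bp in 53 peaks.

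The scaffolds differed widely among themselves. Density ran from 44.8 to 413.5 peaks per Mb, with 188.0 as the median of the 56 scaffolds and 141.1 and 243.6 as quartiles. It was above the highest chromosome value, 58.8, on 55 scaffolds, and the counting interval lay wholly above that value on 48. The densest were super_44 with 413.5 peaks per Mb (343.4 to 493.7), super_49 with 407.3 (323.4 to 506.2), super_61 with 333.4 (245.0 to 443.4), super_72 with 324.6 (243.9 to 423.6) and super_26 with 298.8 (258.2 to 344.0). These 5 intervals overlap, those of super_44 and super_26 only between 343.4 and 344.0. The sparsest were super_141 with 44.8 (14.6 to 104.6), super_55 with 62.6 (28.6 to 118.8), super_58 with 74.6 (47.3 to 111.9), super_110 with 75.1 (34.3 to 142.6) and super_57 with 89.6 (46.3 to 156.5). Each of these 5 intervals lies below that of super_26, and all 5 scaffolds held 23 peaks or fewer.

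Density was lowest in the class of the shortest large scaffolds. The 16 scaffolds of 100 to 150 kb held 165.1 peaks per Mb (147.8 to 184.0), the 16 of 150 to 250 kb 212.7 (197.0 to 229.2), the 13 of 250 to 450 kb 202.6 (189.2 to 216.7) and the 11 longer ones 206.9 (197.1 to 217.1). Among the 10 longest scaffolds, density ran from 138.7 peaks per Mb on super_25 (111.4 to 170.7) to 298.8 on super_26, with 146.0 (125.0 to 169.7) on super_18, 176.7 on super_29, 179.1 on super_28, 195.2 on super_30, 205.5 on super_20, 226.6 on super_22, 240.3 on super_16 and 249.6 on super_27. The intervals of super_25 and super_18 lie below those of super_16, super_20, super_22, super_26 and super_27. Just inside the length threshold lay super_75 with 13 peaks up to 100362, super_60 with 18 up to 105029 and super_63 with 11 up to 109347. Just outside lay super_77 with 19 peaks up to 99693, super_82 with 27 up to 98184 and super_83 with 25 up to 95987. Densities were 100.6 to 171.4 peaks per Mb on the first 3 and 190.6 to 275.0 on the other 3. Their counting intervals are wide. Across the threshold only those of super_63 (50.2 to 180.0) and super_82 (181.2 to 400.1) do not overlap.

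The covered share followed the density on most scaffolds and departed from it on a few. It was under 10% on 47 of the 56, with a median of 6.05% and a lowest value of 1.22% on super_141, followed by 1.75% on super_110, 2.11% on super_58, 2.14% on super_55 and 2.29% on super_63. The highest were 94.2% on super_57, 45.9% on super_70, 23.4% on super_50, 19.2% on super_16 and 18.1% on super_38. On super_57 just 12 peaks gave this share, while the 122 peaks of super_44 covered 16.1% and the 81 peaks of super_49 covered 14.6%.

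**Figure D2:**
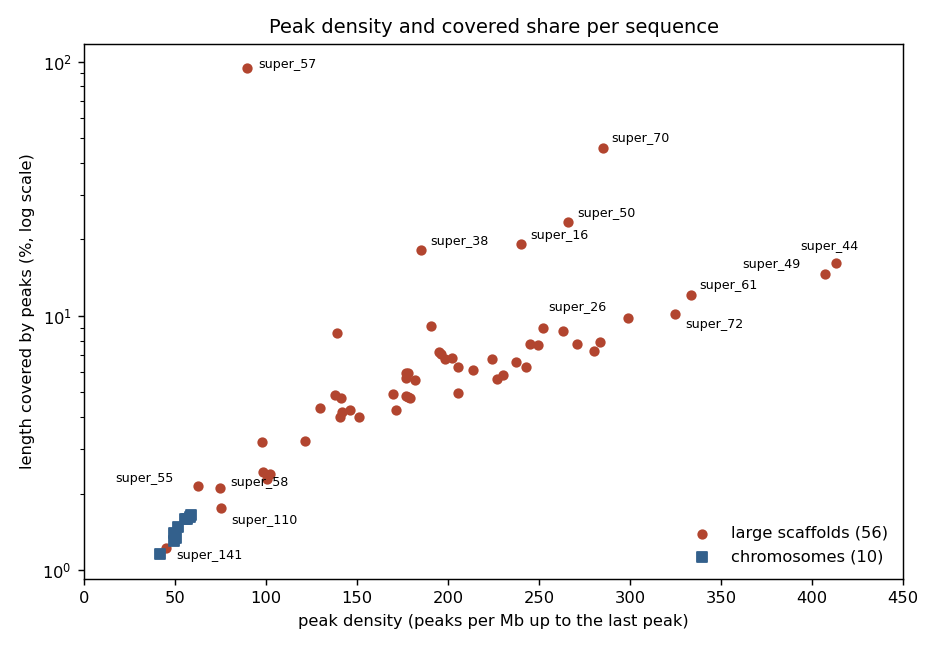
Share of length covered by peaks (%, log scale) against peak density (peaks per Mb) for each of the 56 large scaffolds (circles) and the 10 chromosomes (squares). Most scaffolds lie along one band from super_141 at 44.8 peaks per Mb to super_44 at 413.5, and super_57, super_70, super_50, super_16 and super_38 lie above the band.

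Peak width set these scaffolds apart. The median width was between 200 and 300 bp on 46 of the 56 scaffolds, and under 200 bp on 6, the lowest being 184 bp on super_94, 187 bp on super_110, 196 bp on super_58 and 198.5 bp on both super_60 and super_69. It was over 300 bp on 4, with 8718 bp on super_57, 925.5 bp on super_70, 615 bp on super_38 and 466.5 bp on super_50. The next was 292 bp on super_49. On super_16 the median was 266 bp, its widest peak reached 29.1 kb, and the block of wide peaks in its first 200 kb held 45 of its 333 peaks.

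Neighbouring peaks were close. The median gap was 1199 bp on large scaffolds (1121 to 1270), 1226 bp on small scaffolds (1087 to 1383) and 2338 bp on chromosomes (2277 to 2406). Gaps under 1 kb made up 45.6% (44.0 to 47.3) on large scaffolds, 44.2% (40.5 to 47.9) on small scaffolds and 32.2% (31.7 to 32.7) on chromosomes. Gaps of 50 kb or more were 30 of 3461, or 0.867% (0.586 to 1.24), on large scaffolds and 11.8% (11.4 to 12.1) on chromosomes. A neighbour within 1 kb was found for 64.1% (62.5 to 65.7) of the peaks on large scaffolds. The share was 50.05% (46.9 to 53.1) on small scaffolds and 49.2% (48.7 to 49.8) on chromosomes. The first and last peaks of a scaffold lack a neighbour on their outer side. Small scaffolds had 731 gaps for 1029 peaks, and large scaffolds 3461 gaps for 3517 peaks. The share of peaks with a neighbour therefore does not compare clustering on small scaffolds with that elsewhere. A higher density by itself shortens gaps, so neither the gaps nor this share compare clustering on scaffolds and chromosomes at equal density.

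**Figure D3:**
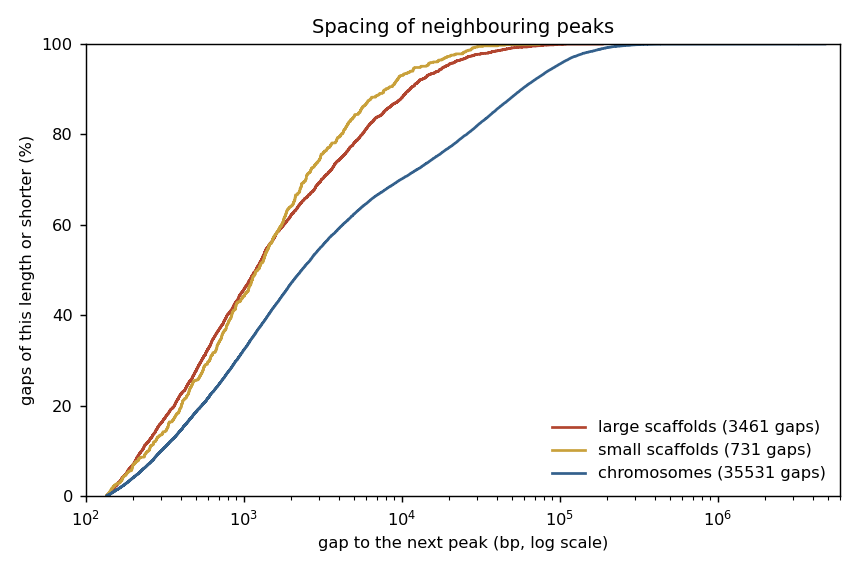
Cumulative share of gaps between neighbouring peaks (%) against gap length (bp, log scale) for large scaffolds, small scaffolds and chromosomes. The curves of both kinds of scaffold run together up to their medians of 1199 and 1226 bp, and the chromosome curve lies to the right with a median of 2338 bp.

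Spacing also varied from scaffold to scaffold. The median gap was under 1 kb on 18 scaffolds and over 5 kb on 5. The tightest were super_38 with 365.5 bp, super_70 with 369 bp, super_57 with 373 bp, super_141 with 425.5 bp and super_44 with 473 bp. The widest were super_55 with 8620 bp, super_45 with 7604 bp, super_110 with 6027 bp, super_78 with 5624 bp and super_58 with 5331 bp. A short median gap did not go with a high density everywhere, since super_141 had both the lowest density and one of the shortest gaps. Its 5 peaks lay within 3.08 kb at the far end, from 108441 to 111522, and the 97.2% of the length before them held none.

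Long stretches without a peak broke up other scaffolds. The longest was 189.0 kb on super_16, from 659205 to 848166. It was followed by 108.9 kb on super_29 (32462 to 141397), 105.6 kb on super_53 (16693 to 122283), 102.8 kb on super_58 (202355 to 305204) and 95.5 kb on super_18 (267335 to 362872). On super_53 the stretch took up 41.5% of the length, 2 peaks lay before it and 43 after it.

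Within scaffolds the peaks gathered in short stretches. In complete 20 kb windows counted from the first base, 164 of 842 windows on large scaffolds, or 19.5% (16.9 to 22.3), held no summit, against 62.5% (62.0 to 63.0) of 34157 windows on chromosomes. The 10% of windows with the most summits held 31.3% (29.7 to 32.9) of those on large scaffolds and 59.2% (58.7 to 59.7) of those on chromosomes. The fewest windows that hold 50% of the summits were 19.4% of the windows on large scaffolds and 7.54% on chromosomes. The lower density of chromosomes by itself gives more empty windows, so these shares do not compare clustering at equal density. The variance of the count per window divided by its mean was 3.73 on large scaffolds and 3.96 on chromosomes.

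The densest 20 kb windows were at 60 to 80 kb of super_44, with 23 peaks, then 20 to 40 kb of super_30 and 260 to 280 kb of super_44, with 19 each. The window at 500 to 520 kb of super_26 held 18. Next came 17 each at 200 to 220 kb of super_16, 380 to 400 kb of super_18 and the first 20 kb of super_44. The median count over all 842 windows was 3. On super_44 the first 80 kb, 27.1% of the length, held 69 of 122 peaks with 862.5 peaks per Mb, against 246.4 in the rest. On super_30 the first 100 kb, 17.6% of the length, held 61 of 111 peaks. The median background was 7.50 fragments in that part of super_30 and 6.95 in the rest, and 8.32 on the first 80 kb of super_44 and 4.95 in the rest. On the 31 scaffolds with 10 or more complete windows, the densest window held between 5.12% and 35.1% of the summits, with a median of 17.6%.

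Peaks were most frequent toward the ends. The first 10% of the scaffold lengths held 13.1% (12 to 14.2) of the peaks and the last 10% held 12.5% (11.4 to 13.6), while the lowest share, 8.15% (7.26 to 9.11), lay between 50% and 60% of the length, with the last peak of each scaffold left out because it sets the length. The length still ends at a peak, so the value for the last 10% is not free of this choice. On 45 of 55 scaffolds 1 window alone held the most summits, and it was the first window on 9 of them and the last complete window on 8. On the other 10 scaffolds windows tied for the most, and the ties took in the first window on 4 and the last complete one on 1. A single window was 1.45% of the complete windows on super_16 and up to 20% on the shortest scaffolds, such as super_110. How often an end window would hold the most summits by position alone was not worked out. On super_65 the first 20 kb held 15 of 22 peaks, and on super_71 it held 11 of 22.

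Windows full of separate peaks and windows covered by wide peaks were mostly different windows. There were 74 windows with 10 or more summits, on 32 scaffolds, and 27 windows of which peaks covered 50% or more, on 8 scaffolds. Of the 27 covered windows, 7 held 10 or more summits, a larger share than the 8.79% among all 842 windows. The median background per window had a median of 5.37 fragments over windows with 10 or more summits and 51.3 over covered windows. Of the covered windows 10 lay on super_16 and 6 on super_57, where backgrounds were high. The covered windows of super_30 and super_44 had median backgrounds of only 8.87 and 7.34 fragments. The 27 covered windows made up 3.21% of all windows and held 29.0% of all bases under peaks. Outside them the large scaffolds still held 198.3 peaks per Mb and were covered over 6.42%.

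The covered windows lay in a few blocks. On super_16, the longest scaffold with 333 peaks, the first 200 kb were covered over 88.3% by 45 peaks with a median width of 1323 bp and a median background of 51.0 fragments. The remaining 1186 kb held 288 peaks with a median width of 245 bp and a background of 4.37, and were covered over 7.54%. The density was about the same on both sides, 225.0 and 242.8 peaks per Mb. Its widest peak ran from 21819 to 50885, or 29.1 kb, and had 359 fragments over 75.2, a fold of 4.72 (4.25 to 5.24). The 10 widest peaks of all large scaffolds were 9.78 to 33.5 kb wide, and super_16 and super_57 held 5 each.

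On super_57 the block was the whole scaffold. Its 12 peaks had widths from 1035 to 33493 bp and pileups from 257 to 361 fragments. The widest peak of all large scaffolds lay here at 40210 to 73702, with a fold of 4.47 (4.02 to 4.96) over a background of 79.95. Between 103354 and 107279 the fold was 5.08 (4.51 to 5.69) over 56.5, and between 108598 and 113619 it was 5.44 over 46.4. Those 2 had the lowest backgrounds of the 12 and the highest folds. The backgrounds of the other 10 lay between 71.5 and 79.95 and their folds between 4.12 and 4.80.

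Blocks at lower background were found on other scaffolds. The first 40 kb of super_25 were covered over 81.6% at a median background of 19.8 fragments, against 3.72% at 3.20 in the rest. The first 110 kb of super_38 held 50 of its 65 peaks and were covered over 53.8% at a median background of 25.9, against 1.87% at 5.04 in the rest. From 130 kb to its last peak, super_50 was covered over 58.6% at 27.0, against 7.67% at 3.94 in the rest. On super_70 the wide peaks came in several blocks over its whole length, with a median background of 43.1.

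**Figure D4:**
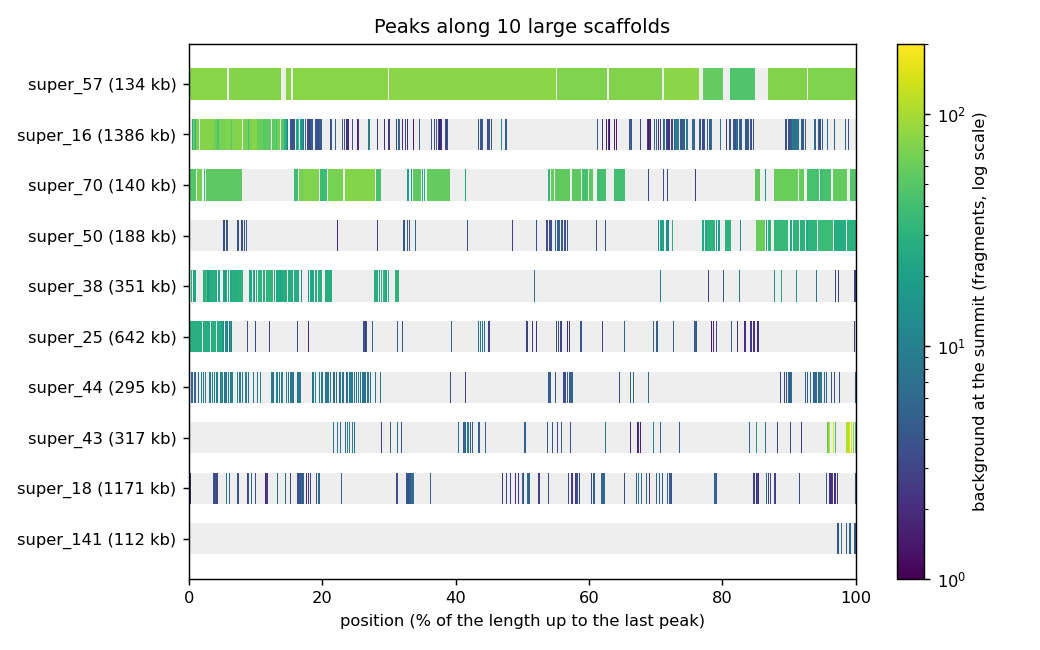
Peaks along 10 large scaffolds, drawn to scale on the percent of the length up to the last peak (peaks narrower than 0.12% of the length are drawn at that width), coloured by background at the summit (log scale). Wide peaks of high background fill super_57 and one end of super_16, super_50, super_38 and super_25, while super_44, super_43 and super_18 carry narrow peaks and super_141 has its 5 peaks in the last 3.08 kb.

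A background of 20 or more was found at 258 peaks on 28 of the 56 scaffolds, 7.34% (6.50 to 8.25) of the peaks on large scaffolds, against 11.4% (9.49 to 13.5) of those on small scaffolds and 0.256% (0.206 to 0.314) of those on chromosomes. Of the 258, 202 stood in 24 runs, on 11 scaffolds. A run is 3 or more such peaks in a row with gaps under 10 kb, and any peak of lower background between them ends it. The runs fell into 2 kinds by their folds. In 17 runs the median fold was between 3.86 and 4.91, and in 7 runs between 1.90 and 2.87. The first kind lay on super_16, super_25, super_38, super_50, super_57 and super_70, the second on super_22, super_29, super_35, super_43 and super_61, and 0 scaffolds held both. The kinds were told apart after their values were seen, so no test was made. Where peaks of lower background did not end a run, there were 19 runs on 12 scaffolds, 11 with a median fold between 4.15 and 4.91 and 8 between 1.90 and 2.87, and again 0 scaffolds held both.

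Runs of the first kind covered more of their span and held wider peaks. Peaks covered a median of 78.0% of the span in the 17 runs of the first kind (30.7 to 94.2%) and of 29.4% in the 7 of the second (15.4 to 63.2%). The median width per run had a median of 1210 bp in the first kind and 324 bp in the second. The 17 runs came from 6 scaffolds, with several each on super_38 and super_70, and the 7 from 5. Runs of the same scaffold are not independent, and whether width follows from the fold that set the kinds was not tested. Median backgrounds overlapped, from 25 to 74.3 fragments in the first kind and from 22.8 to 90.0 in the second.

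**Figure D5:**
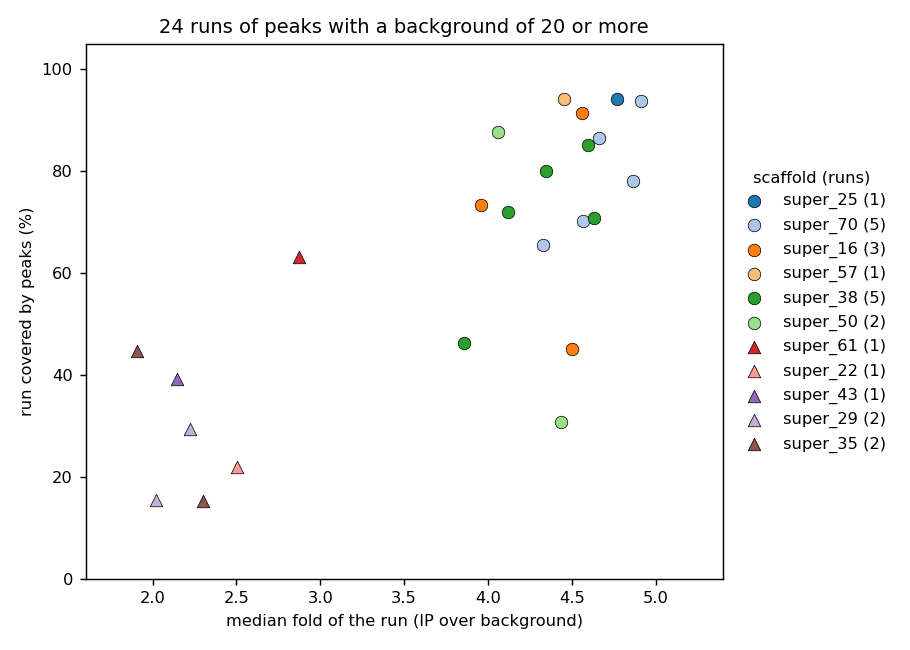
Share of the span covered by peaks (%) against the median fold for the 24 runs of peaks with a background of 20 or more, coloured by scaffold with the number of runs in brackets. The 17 runs drawn as circles have median folds of 3.86 to 4.91, and the 7 drawn as triangles have 1.90 to 2.87.

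The run of low folds with the most peaks was the last 13.7 kb of super_43, from 303637 to 317326. Its 12 peaks had backgrounds from 35.8 to 159.0 fragments, pileups from 81 to 274 and folds from 1.72 to 2.92. The peak with the highest background, at 306272 to 307191, had the lowest fold, 1.72 (1.52 to 1.93). The first peak, ending at 303886, had the highest fold, 2.92 (2.48 to 3.42), over 52.0. All 12 upper limits of the folds lie below the lower limit of the widest peak on super_57, 4.02, although the backgrounds of both places overlap. The highest background on any large scaffold, 215.1, belonged to super_29, in a run from 148439 to 153519 with a median fold of 2.02.

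Of the 10 largest folds, 9 stood over backgrounds under 7 fragments. The highest were 7.93 (5.53 to 11) at 34019 to 34316 of super_47, from 33 fragments over 3.29, and 7.21 (4.63 to 10.8) at 577379 to 578053 of super_18, from 22 over 2.19. The third was 7.06 (5.99 to 8.27) at 225563 to 225834 of super_16, from 153 over 20.8, within a short run of the first kind. Then came 6.94 (5.18 to 9.10) at 193127 to 193543 and 6.85 (4.15 to 10.7) at 296952 to 297781, both of super_20, and 6.90 (4.39 to 10.4) at 1128112 to 1128363 of super_18. The other peaks of the 10, on super_49 at 77537 to 78042, super_40 at 170785 to 171031, super_27 at 212433 to 212761 and super_53 at 147911 to 148543, had folds between 6.53 and 6.62. The intervals of all 10 overlap, so their order is not fixed by the counts.

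Wide peaks of high background held the largest −log10 q values. The first 10, from 104.6 to 117.6, belonged to 5 peaks of super_16, 4 of super_57 and 1 of super_70. The top value was that of the peak at 183314 to 189565 of super_16, with a fold of 5.14 (4.6 to 5.72) from 330 fragments over 63.4. Pileups of the 10 peaks ranged from 266 to 361 fragments. The peak of super_70 at 76253 to 76768 was the narrowest of them, 516 bp wide, with 303 fragments over 56.7 and a fold of 5.27 (4.69 to 5.89).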

How the data were processed

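Sorghum protoplast chromatin was sequenced in 2 Myc IP and 2 input samples. The authors deposited 1 peak list with 10 columns and no header, holding values per peak only. The submitters' processing notes list MACS2 2.2.7.1 and, for alignment software, BWA 0.7.17.2. Settings and genome build: not given in the sources used here. Peak names share 1 alignment name, which includes the letters MkDup. In the deposited list column 5 is a score, column 7 a fold ratio at the summit, and columns 8 and 9 hold p-values and q-values as −log10; these p-values and q-values are the authors'. The score was not used.

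MACS2 is known to give the fold as (pileup + 1)/(background + 1) and p as a Poisson tail above the pileup. For 40087 of 40087 peaks, 1 whole-number pileup matched (relative tolerance 2e-05). A test on simulated data recovered 100% of 4139 pileups. That the background comes from the input is taken, not stated in the list. Depth is unknown, as the list gives no library totals. Starts are 1-based.

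Windows of 20 kb were counted by summits. Scaffolds named are the longest 10, the 5 highest and lowest in density, covered share, width and gap, and 3 on each side of the threshold; peaks named are the top 10 by fold and by −log10 q and the widest. The blocks, runs, super_43, super_29, super_47 and the other scaffolds outside this rule were chosen after their values were seen. The members and lists were chosen with earlier results of these data known. Genes and sequences are not reported, since no genome in the list's coordinates was used here. Alternatives were thresholds on q, fold, background and length, 1 scaffold left out, clustering within 10 kb, covered windows left out, 10 kb windows and runs joined across peaks of lower background. Software was matplotlib 3.10.9, scipy 1.17.1, pandas 2.3.3 and numpy 2.4.6 under Python 3.11.15.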

Additional observations from a re-analysis of the deposited data

How the results depend on the processing

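In all, 11 results and 10 alternatives gave 75 values; leaving out the covered windows, using 10 kb windows and joining runs across peaks of lower background were chosen after seeing the data. Windows of 10 kb bear on the densest windows alone, and joining runs on the 2 counts of runs alone. Of the 75, 30 lay within the 95% counting interval of the reported value (for counts of runs, within 1.5 times) and 45 outside it. For the covered share this was a Wilson interval that takes each base as independent, 8.75 to 8.78%. It is so narrow that small changes lie outside it. The density of large scaffolds stayed above that of chromosomes in each of the 8 alternatives that give a density. Among peaks with a background under 3, counted over the whole length, the ratio was 0.698. Values below are for large scaffolds.

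With −log10 q of 5 or more, density was 84.7 peaks per Mb, the ratio to chromosomes 8.88, covered share 5.77%, median width 338.5 bp, median gap 2063 bp, peaks with a neighbour within 1 kb 52.0%, median fold 4.09, median background 6.90 and the share of peaks in the densest 20 kb windows 43.0%. With folds at or above the median of the whole list, the same measures were 75.3 peaks per Mb, 2.81, 5.23%, 326 bp, 2466 bp, 46.6%, 4.28, 4.54 and 41.4%. With a background under 5, they were 87.9 peaks per Mb, 1.76, 2.53%, 232 bp, 2137 bp, 48.7%, 3.70, 3.58 and 43.95%. With 1 peak per 10 kb cluster, they were 26.9 peaks per Mb, 1.73, 1.11%, 275.5 bp, 31017 bp, 0% by construction, 3.98, 5.59 and 23.3%.

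The covered share was 8.57% with a length threshold of 50 kb, 7.97% with 200 kb and 8.10% without super_57. Without the windows that peaks covered by 50% or more, covered share was 6.42%, median gap 1299 bp, peaks with a neighbour within 1 kb 62.3% and median background 5.26. In 10 kb windows the densest 10% held 36.1% of the peaks. Joining runs gave 11 runs of high fold in place of 17, and 8 of low fold in place of 7. The selections on q, fold, background and clusters leave fewer peaks by construction; for the other changes the cause was not tested.

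No paired analysis was possible because each peak has 1 value for the whole comparison; leaving out a replicate was not possible either. Depth is unknown, scaffold lengths are lower bounds, and folds at the median pileup carry wide counting intervals.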

Other observations

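The 194 peaks at or above a fold of 5 were spread over 45 of the 56 large scaffolds. Of these peaks, 118 had a background under 5 fragments and 39 had one of 20 or more. The most lay on super_16, with 33, of which 14 had a background of 20 or more, and on super_18, with 20, of which 19 had a background under 5. On super_38 and super_70 there were 9 each, and all 9 on each had a background of 20 or more. Their density was 11.2 per Mb (9.64 to 12.8) on large scaffolds, 25 (20.2 to 30.6) on small scaffolds and 4.41 (4.25 to 4.57) on chromosomes. No test was made of these differences, and lengths that end at a peak raise the value most on small scaffolds.

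On super_55, which held 9 peaks over 143.8 kb, 4 peaks lay in the first 13.2 kb and the remaining 5 were spread up to the end. Their folds ranged from 2.74 to 4.94 and their backgrounds from 2.30 to 5.48 fragments.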
